A study of Mus musculus with 48 samples.

Results

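The 10 genes described here are the intermediate filament genes Gfap, Vim and Nes of astrocytes and 7 genes of the list known as pan-reactive, Serpina3n, Osmr, Cd44, Lcn2, Timp1, S1pr3 and Cp. They were taken by name, with earlier results of these data known, and all 10 were among the 24421 genes counted in RNA sequencing of sorted mouse brain cells. The 48 libraries fell into 16 groups of 3. In mice of genotype Aldh1l1-GFP, Gq-CNO was set against Gq-Saline in olfactory bulb, cortex and hippocampus, each in cells sorted as GFP astrocytes and in cells sorted as mCh neurons. Gq is the usual short name of a designer receptor that clozapine N-oxide (CNO) activates, and the labels do not say which cells carried it. In olfactory bulb GFP astrocytes of the same genotype, CNO-control mice were set against untreated mice. In olfactory bulb mCh astrocytes of genotype Slc22a3-FF, mice given Gfap-Cre, labelled Slc22a3-cKO, were set against controls given Gfap-mCh, so both groups carried the floxed allele. Both of these names hold that of Gfap, which is also one of the genes measured. Ages and the animals behind each library are not given in the sources used here, so p-values measure the spread between libraries, which may be technical.

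Astrocytes build their cytoskeleton from GFAP and vimentin, and nestin is the filament protein of neural progenitors that reactive astrocytes can take up again. After injury, infection or inflammation astrocytes change shape and raise a group of genes named pan-reactive because they respond to more than 1 kind of insult. Osmr encodes the oncostatin M receptor, which pairs with gp130 and signals through STAT3, Cd44 a receptor for hyaluronan and osteopontin, and S1pr3 a receptor for sphingosine-1-phosphate. Serpina3n encodes a secreted inhibitor of serine proteases, Lcn2 a lipocalin that binds iron-carrying siderophores, Timp1 an inhibitor of metalloproteinases, and Cp the copper protein ceruloplasmin, which oxidises iron for export. Gfap is known to be abundant in astrocytes of hippocampus and low in most astrocytes of cortical grey matter.

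The libraries held 0.228 to 24.7 M reads (1 M is 1000000 reads), with a median of 5.71 M, and the shallowest were 3 cortical ones: replicate 4 of GFP Gq-CNO with 0.325 M, replicate 3 of mCh Gq-CNO with 0.228 M and replicate 1 of mCh Gq-Saline with 0.695 M. The summed level of 14 astrocyte markers checked the labels. It was 5.35% to 13.6% of reads in the 24 GFP libraries, 0.558% to 2.45% in the 18 mCh neuron libraries and 0.210% to 1.45% in the 6 mCh astrocyte libraries. In all 18 mCh neuron libraries the summed oligodendrocyte markers, 1.84% to 6.04% of reads, lay above the summed neuronal markers, 0.164% to 0.478%, and microglial markers took 0.437% to 1.43%. These libraries are therefore called the mCh sort of each region below. In 4 of the 6 mCh astrocyte libraries the summed microglial markers lay above the summed astrocyte markers. The name mCh astrocytes is kept below as that of the label, and does not say which cells these libraries held. Slc22a3 itself had 0, 0 and 1.60 reads per 1000000 (RPM) in the libraries labelled Slc22a3-cKO and 0 in all 3 flox controls, so at this depth it did not check those labels. Sorted cells were measured in bulk, so fewer cells of a type and less RNA per cell cannot be told apart.

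The promoters of 4 genes are printed because the data turned on them: Gfap and Vim were the members that differed between bulb and cortex, and Cd44 and Cp were those called between Slc22a3-cKO and its control. Each line gives the 250 bases before the transcription start listed by RefSeq on GRCm38.p6, 5′ to 3′ on the strand of the gene, with a matched motif in capitals. They cover chr11:102897201-102897450 on the minus strand for Gfap, chr2:13574061-13574310 on the plus strand for Vim, chr2:102901666-102901915 on the minus strand for Cd44 and chr3:19956804-19957053 on the plus strand for the first of the 2 starts of Cp.
Gfap: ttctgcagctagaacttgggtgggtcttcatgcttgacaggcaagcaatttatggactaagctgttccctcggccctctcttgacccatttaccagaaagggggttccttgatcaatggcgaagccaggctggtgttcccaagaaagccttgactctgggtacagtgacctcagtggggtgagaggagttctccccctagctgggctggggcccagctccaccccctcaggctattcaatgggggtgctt
Vim: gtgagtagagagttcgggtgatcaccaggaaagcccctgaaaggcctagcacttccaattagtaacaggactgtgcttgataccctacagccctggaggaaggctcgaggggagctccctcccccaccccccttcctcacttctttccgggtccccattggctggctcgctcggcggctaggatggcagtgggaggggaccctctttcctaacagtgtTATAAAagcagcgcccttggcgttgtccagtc
Cd44: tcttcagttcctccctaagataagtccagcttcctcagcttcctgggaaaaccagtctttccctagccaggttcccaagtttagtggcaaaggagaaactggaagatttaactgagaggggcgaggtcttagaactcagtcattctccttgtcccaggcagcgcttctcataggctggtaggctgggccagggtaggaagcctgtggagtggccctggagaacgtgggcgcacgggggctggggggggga
Cp: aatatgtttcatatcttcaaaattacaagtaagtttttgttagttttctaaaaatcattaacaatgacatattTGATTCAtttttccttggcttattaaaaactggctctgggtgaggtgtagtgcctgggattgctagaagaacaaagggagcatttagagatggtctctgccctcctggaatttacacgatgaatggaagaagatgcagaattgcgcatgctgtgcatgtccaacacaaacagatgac
The capitals mark a TATA match (TATAAA) that begins 32 bases before the start of Vim and an AP-1 match (TGANTCA) that begins 177 bases before the first start of Cp. Both strands were searched, and the windows of Gfap and Cd44 held no match. The window of the second start of Cp, not printed, held 2 overlapping TATA matches, 1 on each strand. A STAT match (TTCNNNGAA) stood in none of the 10 members' promoters and in 7.18% of 27018 promoters of this length. An AP-1 match stood in 1 of 10, against 6.87% of all, and a TATA match in 1 of 10 at the first listed start, against 12.97% of all. These matches describe letters, and none was tested for use.

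On mm10, Gfap spans chr11:102887336-102900912 on the minus strand, Vim chr2:13573927-13582826 on the plus strand and Nes chr3:87971078-87980451 on the plus strand. Serpina3n lies at chr12:104406729-104414329, Osmr at chr15:6813577-6874969, Cd44 at chr2:102811141-102901665, Lcn2 at chr2:32384633-32388252, Timp1 at chrX:20870166-20874735, S1pr3 at chr13:51408639-51422797 and Cp at chr3:19957054-20009145. Serpina3n has related genes of the Serpina3 family beside it. Whether reads were split between them was not checked, so its levels are uncertain. Exons of S1pr3 overlap Gm32834 by 45 bases and exons of Cp overlap Hps3 by 108 bases, each on the opposite strand, and the sources used here do not say whether counting used strand.

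Gfap had the most gaps between neighbouring groups of the 10 members, and also the most reads, 112864 over the 48 libraries. Its mean level was 694 ± 146 RPM in hippocampal GFP astrocytes of Gq-Saline mice, 639.7 ± 49.7 in bulb GFP Gq-CNO, 638 ± 69.6 in hippocampal GFP Gq-CNO and 636 ± 54.9 in bulb GFP Gq-Saline (SD, n = 3 in this and each following group). It was then 355 ± 27.5 RPM in untreated bulb GFP astrocytes, 226 ± 4.73 in cortical GFP Gq-CNO, 189 ± 45.3 in the bulb mCh sort of Gq-CNO mice, 169 ± 52.4 in CNO-control bulb GFP astrocytes, 153 ± 70.2 in the bulb mCh sort of Gq-Saline mice and 144 ± 47.7 in cortical GFP Gq-Saline. Below these came the hippocampal mCh sort, 84.5 ± 9.38 RPM in Gq-CNO and 57.5 ± 11.2 in Gq-Saline mice, and the bulb mCh astrocytes, 23.21 ± 9.59 RPM in Slc22a3-cKO and 35.1 ± 15.3 in flox control libraries. The cortical mCh sort had least, 3.72 ± 2.01 RPM in Gq-CNO and 7.89 ± 8.41 in Gq-Saline mice. Of the 15 pairs of neighbours in this order, 5 did not overlap in their libraries and 10 did. Vim, Cd44 and Cp each had 1 such gap among 15, and every neighbouring pair of the other 6 members overlapped. The share of all genes with such gaps was not computed. Over the 48 libraries Vim had 38434 reads, Cp 14955 and Cd44 3250, and the part of read number in these gaps was not tested.

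Scaled by length, as RPM per kilobase of exon, the filament genes Gfap and Vim led in the GFP sort, and Nes did not. Over the 24 GFP libraries the median level of Gfap was 111 RPM per kilobase, that of Vim 23.98, that of Serpina3n 8.84 and that of Osmr 1.44. Nes at 1.26, Cp at 1.10, S1pr3 at 1.01 and Cd44 at 0.582 RPM per kilobase were all low there. In the 6 mCh astrocyte libraries the order was another: Serpina3n at 40.8 RPM per kilobase, Vim at 27.4 and Cp at 15.8 stood above Gfap at 6.74, Osmr at 5.57, Cd44 at 3.84, S1pr3 at 3.56 and Nes at 1.23. The low Gfap of these cells, from mice given Gfap-Cre or Gfap-mCh, came with the low astrocyte marker sum given above, whose part in it was not tested.

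Lcn2 and Timp1 were near absent. Lcn2 had 103 reads, 17.5 RPM, in 1 library of the bulb mCh sort of Gq-Saline mice (replicate 2), 7 reads in replicate 2 of the hippocampal mCh sort of Gq-Saline mice and 6 reads in replicate 1 of the bulb GFP Gq-CNO group. It had 0 reads in the other 45. Timp1 had reads in 15 of 48 libraries, at most 2.35 RPM (13 reads) in replicate 1 of cortical GFP Gq-CNO. Neither passed the filter of 10 normalised reads in 3 libraries in any comparison, so neither was tested. The other 8 members passed it in at least 1 comparison, and each count below is over the members that passed.

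**Figure D1:**
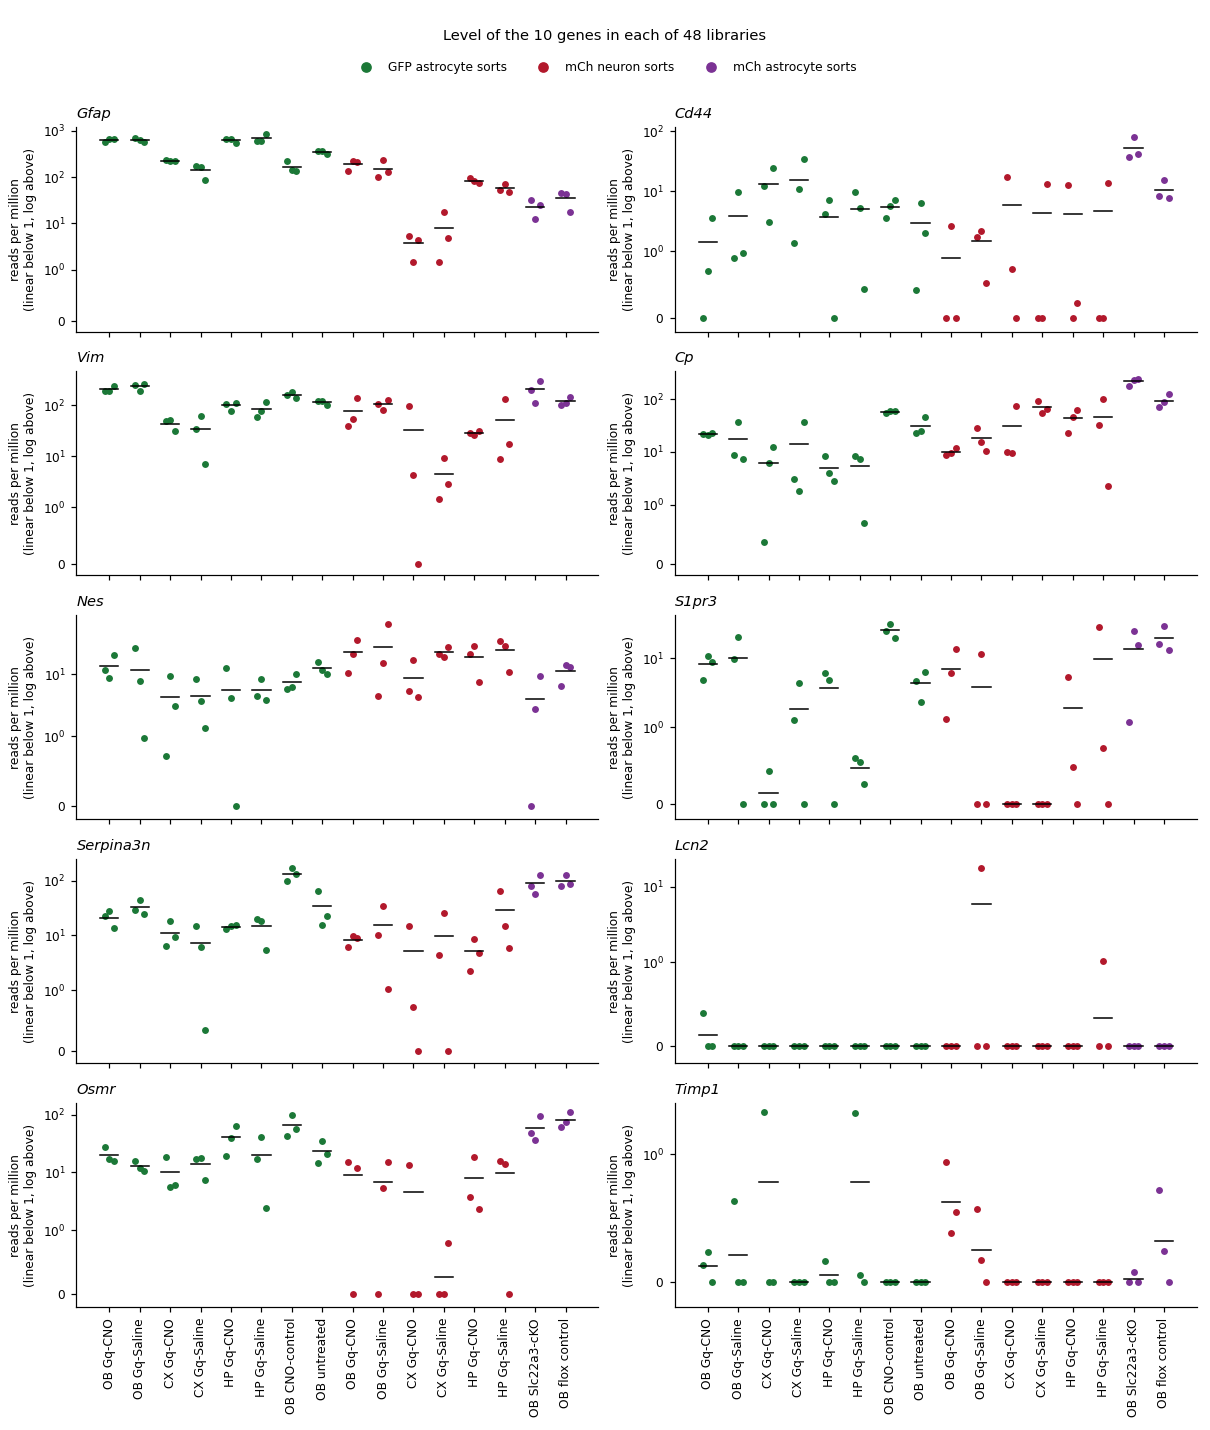
Level of each of the 10 members in every library (points, RPM, symmetric log axis), by group, with Gq-CNO left of Gq-Saline, CNO-control left of untreated and Slc22a3-cKO left of flox control. Gfap spans 1.44 RPM in the cortical mCh sort to 862 RPM in hippocampal GFP astrocytes, and Lcn2 has reads in 3 libraries only.

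Gq-CNO against Gq-Saline asked whether CNO in Gq mice changed these genes in each region and sort. No member was called in any of the 6 comparisons by limma at an adjusted p under 0.05, and none by edgeR or DESeq2 on the recovered reads. At an unadjusted p under 0.05, limma found 1 member in cortical GFP astrocytes, 1 in the cortical mCh sort and 0 in the other 4 comparisons. Over all genes that threshold took 142 of 9978 in cortical GFP astrocytes and 428 of 9392 in the cortical mCh sort. It took 564 of 11810 in bulb and 234 of 11519 in hippocampal GFP astrocytes. In the bulb mCh sort it took 556 of 10492, and in the hippocampal one 445 of 9808. The share of all genes called was 0.00847% (1 of 11810) in bulb GFP astrocytes and 0% in the other 5 comparisons by limma. Over all genes edgeR called 0 in each, and DESeq2 called 1 in bulb, 0 in cortical and 5 in hippocampal GFP astrocytes and 2 in bulb, 3 in cortical and 13 in hippocampal mCh sorts. Between 5 and 7 members were tested in each.

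In bulb GFP astrocytes Gfap and Vim were tightly measured. Nes was not, at 8.75 to 20.55 RPM in Gq-CNO and 0.972 to 26.5 RPM in Gq-Saline libraries. Gfap had 583, 675 and 661 RPM in Gq-CNO libraries, against 696, 624 and 588 RPM in Gq-Saline libraries. The groups overlapped, and the log2 difference was 0.02 with a 95% interval of -0.27 to 0.30. Vim had 195, 193 and 236 RPM in Gq-CNO, against 256, 187 and 266 RPM in Gq-Saline, with a log2 difference of -0.17 (interval -0.56 to 0.23). Osmr had 27.2, 16.7 and 15.6 RPM in Gq-CNO, against 15.9, 11.8 and 10.4 RPM in Gq-Saline libraries. These touch in RPM and do not overlap on the test's normalised scale, as for 9.88% of genes tested there, and the difference of 0.63 ± 0.50 (SE) did not pass (limma, adjusted p = 0.996). Serpina3n differed by -0.63 ± 0.417 (SE, limma adjusted p = 0.996).

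In cortical GFP astrocytes Gfap had 229, 220.4 and 228 RPM in Gq-CNO libraries, against 178, 164 and 89.1 RPM in Gq-Saline libraries. The 2 groups did not overlap, and 8.89% of all genes tested there did not overlap either. The log2 difference of 0.75 (SE 0.336, interval 0.00 to 1.49) did not pass across all genes (limma, adjusted p = 0.91). The lowest Gq-Saline value came from the library numbered 4, and without the libraries numbered 4 of both groups the difference was 0.41 (limma, adjusted p = 0.992). In hippocampal GFP astrocytes Gfap had 681, 676 and 558 RPM in Gq-CNO, against 609.8, 608.8 and 862 RPM in Gq-Saline, overlapping groups with a difference of -0.11 ± 0.23 (SE). Osmr there ran from 19.5 to 63.7 RPM in Gq-CNO and from 2.42 to 41.2 RPM in Gq-Saline libraries, a difference of 1.60 ± 0.935 (SE) that did not pass (limma, adjusted p = 0.976).

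In the mCh sorts, Gfap had 94.8, 82.3 and 76.4 RPM in hippocampal Gq-CNO libraries, against 53.9, 70.0 and 48.5 RPM in Gq-Saline libraries. These groups did not overlap, as for 9.48% of genes tested there, and the difference of 0.53 ± 0.455 (SE) did not pass (limma, adjusted p = 0.99). Nes, in the cortical mCh sort, had 5.30, 16.8 and 4.39 RPM in Gq-CNO against 21.6, 19.0 and 27.32 RPM in Gq-Saline libraries, again without overlap (9.64% of genes there) and without passing. Cp, in the same sort, differed by -1.84 ± 0.838 (SE, limma adjusted p = 0.967). Serpina3n in the hippocampal mCh sort differed by -1.91 ± 1.09 (SE, limma adjusted p = 0.99), with 66.0 RPM in 1 Gq-Saline library and 2.28 to 14.9 RPM in the other 5. The difference of the CNO effect between regions was tested in 6 interactions, and limma called 0 members and 0% of genes. In these 6, edgeR and DESeq2 called 0 members, and by limma 1 member had an unadjusted p under 0.05 in each of 3 of them. In the GFP sort that threshold took 327 of 12950 genes for bulb against cortex and 716 for cortex against hippocampus. For cortex against hippocampus in the mCh sort it took 744 of 12358.

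**Figure D2:**
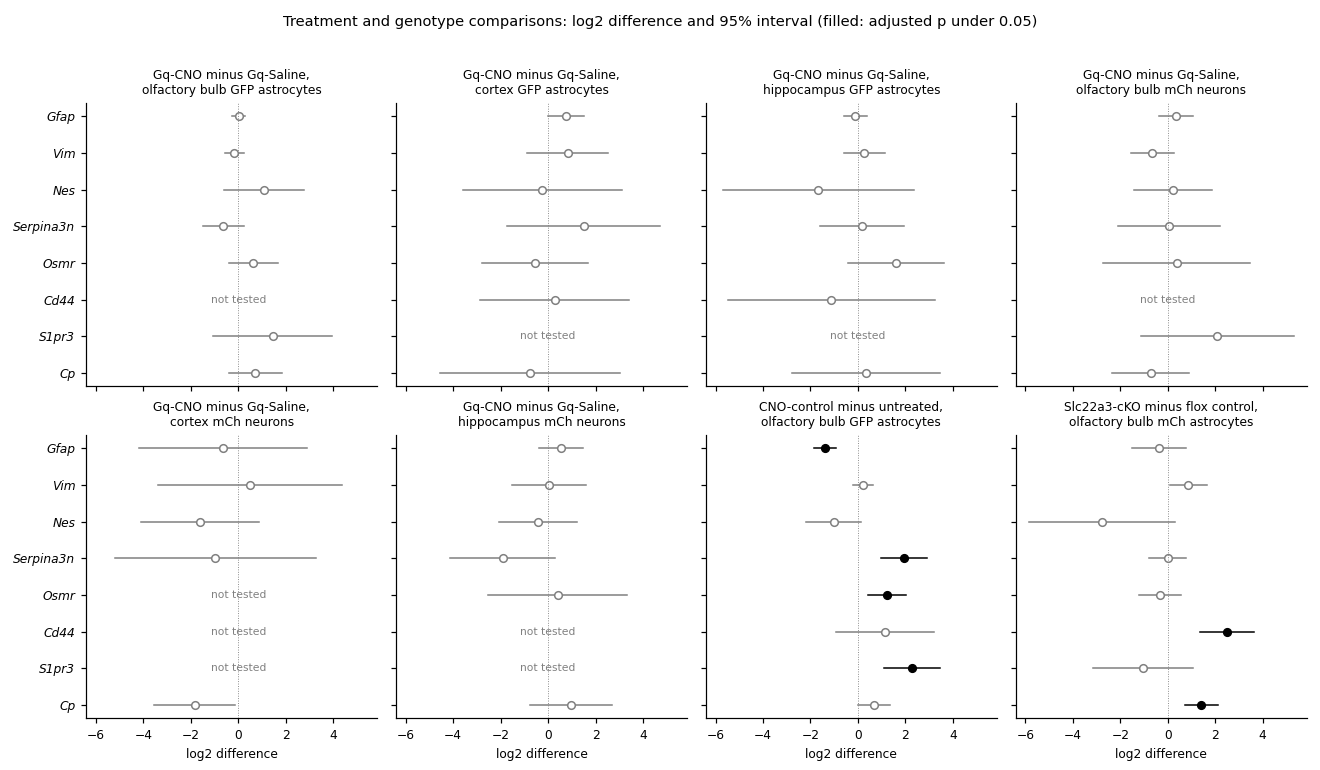
Log2 difference of each tested member with its 95% interval in the 8 comparisons of treatment or genotype, with filled points for adjusted p under 0.05. In the 6 panels of Gq-CNO against Gq-Saline no point is filled, 4 are filled in CNO-control against untreated and 2 in Slc22a3-cKO against flox control.

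Regions were compared within each sort, as the mean of Gq-CNO and Gq-Saline groups, 6 libraries a region. The 3 GFP regions lie in 3 separately normalised tables, so their recovered reads were scaled together, and region and table cannot be told apart. In the GFP sort, Gfap set cortex apart from both other regions, and Vim was higher in bulb than in cortex. Gfap was higher in bulb than in cortex, with a median of 643 RPM (583 to 696) in bulb and 199 RPM (89.1 to 229) in cortex, a log2 difference of 1.69 ± 0.162 (SE, limma adjusted p = 6.04e-07). The 6 bulb libraries all lay above the 6 cortical ones, and 5.23% of all genes tested did not overlap between these regions. Gfap was lower in cortex than in hippocampus, whose median was 643 RPM (558 to 862), with a log2 difference of -1.84 ± 0.162 (SE, limma adjusted p = 9.33e-07). Between bulb and hippocampus the difference in Gfap was -0.15 with an interval of -0.49 to 0.18, and their libraries overlapped. The summed astrocyte markers went another way, 5.79% to 6.71% of reads in bulb, 8.42% to 13.6% in cortex and 9.48% to 12.4% in hippocampus, and their part in these differences was not tested.

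Vim, which also forms filaments with Gfap, was higher in bulb GFP astrocytes, with a median of 215 RPM (187 to 266), than in cortical ones, with 42.1 RPM (7.14 to 60.4). The difference was 2.59 ± 0.362 (SE, limma adjusted p = 0.000102), with no overlap, as for 5.23% of genes tested. It was 2.06 (limma, adjusted p = 1.79e-05) without the cortical libraries numbered 4, of which that of Gq-Saline had the lowest Vim, and it did not pass among Gq-Saline libraries alone (3.09, limma adjusted p = 0.0619, the highest over 24 alternatives, whose lowest was 1.61e-09). Against hippocampus, where Vim had a median of 92.6 RPM (59.3 to 115), bulb was higher in all libraries, and 5.08% of genes tested did not overlap there. The difference of 1.20 ± 0.362 (SE) did not pass by limma (adjusted p = 0.0744) and passed by DESeq2 (adjusted p = 0.0158). Vim between cortex and hippocampus differed by -1.39 (limma, adjusted p = 0.153), and passed without replicate 2 of cortical Gq-Saline (limma, adjusted p = 0.0318) and by DESeq2 (-1.20, adjusted p = 0.0367).

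Gfap and Vim were the 2 members called of those tested between bulb and cortex, where 5.02% of 12950 genes were called. The median difference of the members tested was 1.72, against 0.402 over all genes. By limma Gfap alone was called between cortex and hippocampus, where 0.147% of genes, 19, were called (51 without replicate 4 and 48 without replicate 1 of GFP cortical Gq-Saline, 11 without replicate 4 of cortical Gq-CNO and 12 without replicate 4 of hippocampal Gq-Saline; member median -0.984, all genes -0.153). Between bulb and hippocampus limma called 0 members (3.66% of genes called), and edgeR called 0 and DESeq2 1, which was Vim. At an unadjusted p under 0.05 limma found 1 member and 1701 of 12950 genes there. Limma called no receptor or secreted protein in any pair of regions of this sort, while DESeq2 called S1pr3 between bulb and cortex (3.48, adjusted p = 0.037). Serpina3n differed by 1.92 between bulb and cortex (limma, adjusted p = 0.126, and 0.0361 without replicate 1 of cortical Gq-Saline). S1pr3 differed by 3.33 (limma, adjusted p = 0.157, and 0.0397 without replicate 3 of bulb Gq-Saline), and Cd44 by -2.95 (limma, adjusted p = 0.212).

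In the mCh sort Gfap and Vim were also called between bulb and cortex, where 8.58% of 12358 genes were called. Gfap had a median of 175 RPM (99.7 to 233) in bulb and 4.60 RPM (1.44 to 17.4) in cortex. The difference was 5.15 ± 0.478 (SE, limma adjusted p = 3.77e-10) without overlap, as for 4.29% of genes tested. Vim had a median of 94.1 RPM (39.2 to 141) in bulb and 3.60 RPM in cortex, but 1 cortical library, replicate 1 of Gq-CNO, had 95.4 RPM, so the groups overlapped. Its difference of 4.13 ± 0.80 (SE) passed (limma, adjusted p = 0.000544) and did not among Gq-CNO libraries alone (limma, adjusted p = 0.13, the highest of alternatives from 3.09e-06). Without the cortical libraries of under 1 M reads it was 2.91 (limma, adjusted p = 0.0021). Gfap was also lower in cortex than in hippocampus, whose median was 73.2 RPM (48.5 to 94.8), with a difference of -3.92 ± 0.478 (SE, limma adjusted p = 3.07e-06), where 0.388% of genes were called. Among Gq-Saline libraries alone that difference was -3.33 (limma, adjusted p = 0.122, the highest of alternatives from 8.47e-15). Vim between cortex and hippocampus differed by -2.58 (limma, adjusted p = 0.192), and by -3.60 without replicate 1 of cortical Gq-CNO (limma, adjusted p = 0.0104).

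Bulb and hippocampal mCh sorts did not overlap in Gfap, as for 3.38% of genes tested. The Gfap difference of 1.23 ± 0.478 (SE) did not pass by limma (adjusted p = 0.186), while edgeR (0.0447) and DESeq2 (0.00356) called it. Limma called 0 members there, with 3.91% of genes called, and it called no member other than Gfap and Vim in any pair of regions of this sort. Cp differed by -1.49 between the bulb and cortical mCh sorts (limma, adjusted p = 0.156), which DESeq2 called (-1.73, adjusted p = 0.0404). The median difference of the members tested was 1.87 in bulb against cortex (all genes 0.392), -1.96 in cortex against hippocampus (all genes -0.198) and -0.138 in bulb against hippocampus (all genes 0.141). S1pr3 had 0 reads in all 6 cortical libraries of this sort. Against a floor of 3 reads over that group, 0.353 RPM, its mean level was at least 15.5-fold higher in the bulb mCh sort (at least 10.8-fold without the highest bulb library). The median of the 6 bulb libraries was 3.74 RPM and 2 had 0, and the difference of 2.67 did not pass (limma, adjusted p = 0.102). Against hippocampus the cortical level was at least 16.7-fold lower. That figure rests on replicate 1 of hippocampal mCh Gq-Saline, at 28.7 RPM, and was at least 3.71-fold without it, where the median of the 6 hippocampal libraries was 0.61 RPM and 2 had 0. With S1pr3 at these bounds the member medians were 1.87 in bulb against cortex and -2.19 in cortex against hippocampus (-1.87 with the bound that leaves out that library). The summed astrocyte markers took 0.818% to 2.45% of reads in the bulb mCh sort, 0.558% to 1.00% in the cortical and 0.665% to 1.13% in the hippocampal one, and their part in the Gfap differences was not tested.

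The sorts were compared within each region, GFP against mCh, on reads scaled together because the sorts lie in different tables, so sort and table cannot be told apart. Gfap was higher in the GFP sort in all 3 regions. In cortex its normalised level was 869 ± 282 in GFP and 24.7 ± 24.9 in mCh libraries (SD, n = 6 each), a difference of 5.49 ± 0.343 (SE, limma adjusted p = 1.88e-16). In hippocampus it was 2972 ± 610.4 in GFP and 290.3 ± 66.5 in mCh libraries, a difference of 3.36 (limma, adjusted p = 2.87e-10). In bulb it was 2623 ± 152 in GFP and 691 ± 219 in mCh libraries, a difference of 1.99 (limma, adjusted p = 2.99e-05). GFP and mCh libraries did not overlap in Gfap in any region. Of all genes tested, 14.3% did not overlap in bulb, 11.7% in cortex and about 15% in hippocampus. The summed astrocyte markers moved the same way as Gfap. Their lowest share in a GFP library was 5.79%, and their highest in an mCh library of these mice was 2.45%. The share of all genes called was 15% in bulb, 31.9% in cortex and 27.1% in hippocampus, and TMM scaling moved the median of all genes by 0.124 in bulb and 0.132 in cortex.

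By limma, Vim and Osmr passed in cortex, Nes in hippocampus and Cp in both, and whether regions differed in these sort differences was not tested. In cortex, Vim was higher in the GFP sort by 3.12 ± 0.746 (SE, limma adjusted p = 0.00101). Osmr there had a median of 12.3 RPM (5.68 to 18.1) in the GFP sort and 0 RPM (0 to 13.5) in the mCh sort, a difference of 4.33 ± 1.13 (SE, limma adjusted p = 0.00252). It did not pass among Gq-CNO libraries alone (limma, adjusted p = 0.10, the highest of alternatives from 0.000255). Cp ran the other way. It had a median of 4.57 RPM (0.361 to 37.4) in the cortical GFP sort and 58.6 RPM (9.49 to 90.6) in the cortical mCh sort, a difference of -2.81 ± 0.821 (SE, limma adjusted p = 0.00697), and did not pass within either treatment (limma, adjusted p = 0.111 in Gq-CNO and 0.0613 in Gq-Saline, with 0.000725 the lowest of all alternatives).

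Cp was also lower in the GFP sort of hippocampus, with a median of 5.62 RPM (0.692 to 8.50) in GFP and 39.9 RPM (2.25 to 101) in mCh libraries, a difference of -2.62 ± 0.821 (SE, limma adjusted p = 0.0136). That call was lost among Gq-Saline libraries (limma, adjusted p = 0.25), without replicate 4 of hippocampal GFP Gq-Saline (0.0603) and without replicate 2 of hippocampal mCh Gq-Saline (0.0716), and the lowest adjusted p was 0.000151. Nes was lower in the hippocampal GFP sort, with a median of 4.32 RPM (0 to 12.6) in GFP and 24.5 RPM (7.53 to 35.0) in mCh libraries, a difference of -2.36 ± 0.839 (SE, limma adjusted p = 0.0315). This call was lost in 12 of 23 alternatives, whose limma, edgeR and DESeq2 adjusted p ran from 0.00818 to 0.304. Leaving out 7 libraries in turn ended it: replicates 4 of GFP Gq-CNO (-1.52, adjusted p = 0.165 by limma), 1 (0.058) and 4 (0.0583) of GFP Gq-Saline, 1 (0.0599) and 2 (0.0741) of mCh Gq-CNO, and 1 (0.0692) and 2 (0.0599) of mCh Gq-Saline. Vim in hippocampus differed by 1.77 (limma, adjusted p = 0.075). It passed by DESeq2 (1.37, 0.0378), with a pseudocount of 10 (0.0182) and without replicate 2 of mCh Gq-Saline (0.0202), and Osmr there (2.32, limma adjusted p = 0.128) passed with a pseudocount of 10 (0.0457).

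In cortex, 2 members that limma did not call passed when 1 library was left out. Cd44 differed by 3.10 (limma, adjusted p = 0.0641). It passed without cortical GFP Gq-CNO replicate 2 (0.0482), GFP Gq-Saline replicate 1 (0.0338), mCh Gq-CNO replicate 1 (0.0195) or mCh Gq-Saline replicate 3 (0.0148). Serpina3n differed by 1.70 (limma, adjusted p = 0.182), and passed without GFP Gq-Saline replicate 4 (0.0495), mCh Gq-CNO replicate 1 (0.039) or mCh Gq-Saline replicate 2 (0.0489). S1pr3 was at 0 in the cortical mCh sort and in 3 of 6 cortical GFP libraries. Its mean of 1.01 RPM in the GFP sort rests on replicate 2 of Gq-Saline, at 4.36 RPM, and was 0.341 RPM without it, below the floor of 0.353 RPM, so no fold is given. The median difference of members tested was 1.38 in bulb (all genes 0.0181), 2.40 in cortex (0.0471) and 1.00 in hippocampus (-0.0438).

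**Figure D3:**
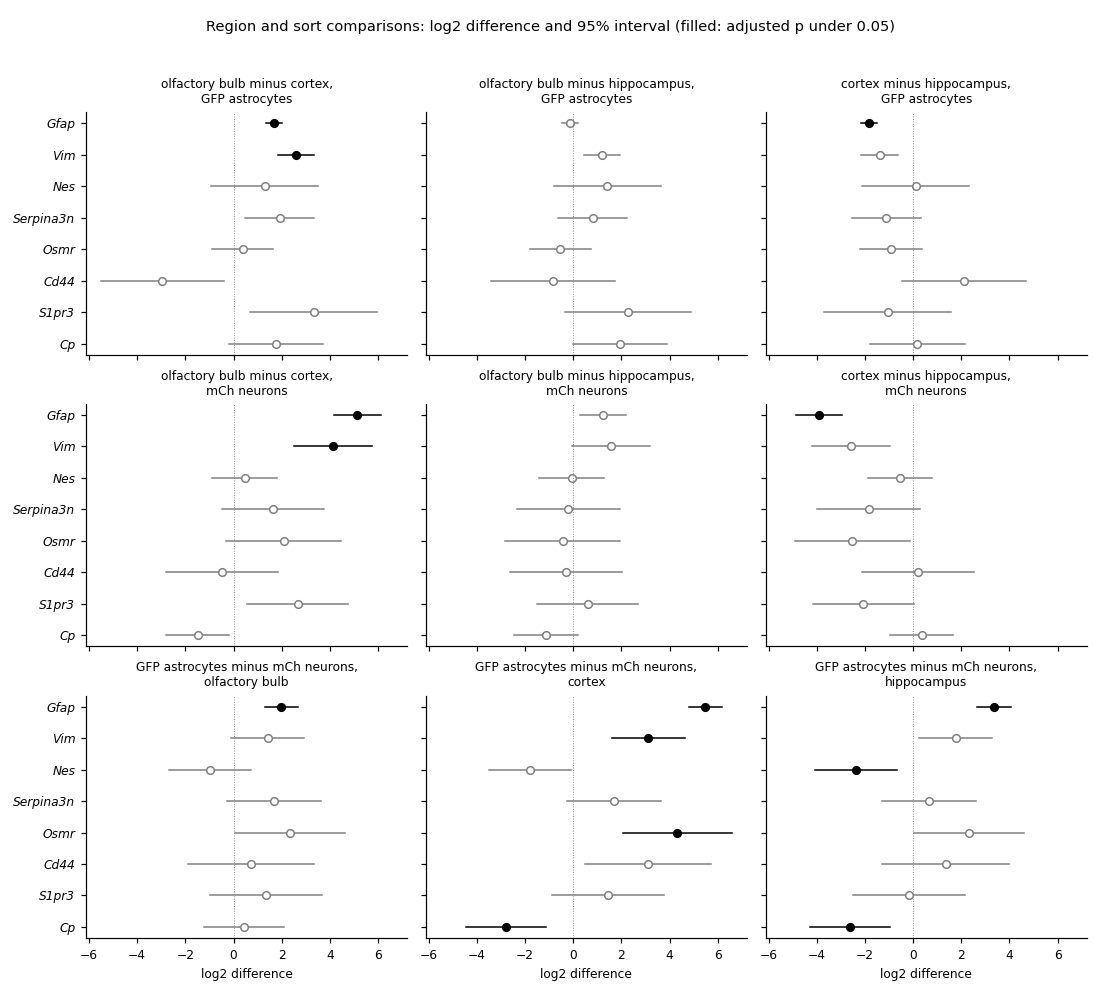
Log2 difference of each tested member with its 95% interval between regions in the GFP sort and in the mCh sort, and between the GFP and mCh sorts of each region, with filled points for adjusted p under 0.05. Gfap is filled in 7 of the 9 panels, and open in both panels of bulb against hippocampus.

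Between CNO-control and untreated bulb GFP astrocytes of Aldh1l1-GFP mice, limma called 4 members. Of 8 members tested, Serpina3n, Osmr and S1pr3 were higher in CNO-control and Gfap was lower, and 12.2% of 10940 genes were called, 579 higher and 753 lower. That count of 1332 was 797, 551 and 526 without CNO-control replicate 1, 2 and 3 in turn. On the normalised scale the libraries did not overlap for 6 of the 8 members and for 32.9% of all genes, and the member median was 0.916 against 0.107 over all genes. Gfap had 229, 142 and 135 RPM in CNO-control libraries, against 367, 376 and 324 RPM in untreated libraries. Every CNO-control library lay below every untreated one. The difference was -1.38 ± 0.217 (SE, interval -1.85 to -0.90, limma adjusted p = 0.00181), and of 14 alternatives it was lost in 1, a limma fit with no trend of spread with level (adjusted p = 0.0668), with the lowest adjusted p at 6.43e-07.

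The protease inhibitor Serpina3n had 98.7, 168 and 135 RPM in CNO-control libraries, against 65.4, 15.7 and 22.6 RPM in untreated libraries, without overlap. It rose by 1.93 ± 0.447 (SE, limma adjusted p = 0.0155). The call was lost without CNO-control replicate 2 (0.0605) or 3 (0.0527), without untreated replicate 3 (0.0564) and with no trend (0.122), and the lowest adjusted p was 0.000512. S1pr3, the sphingosine-1-phosphate receptor, had 24.9, 31.2 and 20 RPM in CNO-control, against 4.64, 2.32 and 6.41 RPM in untreated libraries, and rose by 2.28 ± 0.551 (SE, limma adjusted p = 0.0187). It did not pass without CNO-control replicate 1 (0.0811), 2 (0.13) or 3 (0.0688), with the lowest adjusted p at 0.000977. Osmr, the oncostatin M receptor, had 43.1, 98.3 and 56.2 RPM in CNO-control, against 14.8, 34.2 and 20.6 RPM in untreated libraries, and rose by 1.24 ± 0.374 (SE, limma adjusted p = 0.0496). It stood at the threshold: it was lost without CNO-control replicate 1 (0.0589), 2 (0.92, adjusted p = 0.269) or 3 (0.123), without untreated replicate 1 (0.088) or 3 (0.0911), with a pseudocount of 0.5 (0.0528), with no low-value filter (0.0725) and with no trend (0.149), and the lowest adjusted p was 0.0134.

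The other 4 members did not pass. Cp had 53.3, 58.2 and 59.7 RPM in CNO-control libraries, against 22.8, 24.9 and 44.9 RPM in untreated libraries, without overlap, and its difference of 0.69 ± 0.306 (SE, limma adjusted p = 0.168) passed only without untreated replicate 3 (0.97, limma adjusted p = 0.0403). Nes had 5.74, 6.30 and 10.2 RPM in CNO-control, against 16.03, 11.6 and 10.1 RPM in untreated libraries, with a difference of -1.02 ± 0.536 (SE, limma adjusted p = 0.243). Vim had 157, 181 and 138 RPM in CNO-control, against 120, 121 and 102 RPM in untreated libraries (difference 0.21, limma adjusted p = 0.517). Cd44 had 3.63, 5.71 and 7.27 RPM in CNO-control, against 0.422, 6.38 and 2.02 RPM in untreated libraries (1.14, limma adjusted p = 0.471). The test's scaling set differences 0.26 lower on the log2 scale than RPM would.

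Several measures moved with these 2 groups. Depth was 6.62 to 8.58 M reads in CNO-control and 1.72 to 2.96 M in untreated libraries. Malat1, a nuclear RNA, took 2.37% to 4.10% of reads in CNO-control and 0.255% to 0.428% in untreated libraries, and Egr1, an early response gene, had 339 to 583 RPM in CNO-control and 42.2 to 98.0 RPM in untreated libraries. The 12 microglial markers summed to 108 to 190 RPM in CNO-control and 537 to 729 RPM in untreated libraries, and 10 of 12 were called lower. The 14 astrocyte markers summed to 5.35% to 6.12% of reads in CNO-control and 6.36% to 7.04% in untreated libraries (1 called higher, 5 lower), and 3 of 4 olfactory ensheathing markers were called higher. Border macrophage markers summed to 5.29 to 23.1 RPM in CNO-control and 84.1 to 146 RPM in untreated libraries, with 3 of 3 tested called lower. Oligodendrocyte markers summed to 1972 to 2776 RPM in CNO-control and 1060 to 1476 RPM in untreated libraries, and mural markers to 127 to 192 RPM in CNO-control and 83.3 to 90.4 RPM in untreated libraries. The ribosomal precursor Rn45s took 8.90% to 11.5% of reads in CNO-control and 15.7% to 23.1% in untreated libraries. The column names of the 2 groups also follow different schemes. The part of each in the Gfap, Serpina3n, S1pr3 and Osmr differences was not tested.

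Calls among other genes of these pathways in CNO-control stand beside the 12.2% of all genes called. In the gp130 and STAT3 list 10 of 14 genes were tested, 1 was called higher and 1 lower, and the median was -0.0382 (all genes 0.107). Socs3, the feedback inhibitor that STAT3 induces, rose by 5.17 ± 0.979 (SE, limma adjusted p = 0.00579), with a normalised level of 57.4 ± 17.0 in CNO-control and 0.971 ± 1.68 in untreated libraries (SD, n = 3 each). Il6st, which encodes gp130 itself, fell by 0.93 (limma, adjusted p = 0.00199). In the list of other pan-reactive genes 2 of 4 were tested, and Hsbp1, a heat shock factor binding protein, fell by 1.69 (limma, adjusted p = 0.000318). That list held Hsbp1 and not Hspb1, a heat shock protein gene of similar spelling that was not looked at. The fall of Hsbp1 is therefore not read as that of a pan-reactive gene. In the list known as A1, of neuroinflammation, all 11 were tested and 1 was called, H2-D1, an MHC class I gene, which fell by 2.23 (limma, adjusted p = 0.0116). Its median was 0.223. Of the A2 list, of ischaemia, 2 of 12 were tested and 0 called by limma. Of other intermediate filament and cytolinker genes 6 of 11 were tested and 0 called by limma (median 0.230), and of ligands, receptors and partners of the members 9 of 16 were tested and Cd63, a receptor for TIMP1, fell by 0.87 (limma, adjusted p = 0.0345).

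Slc22a3-cKO against flox control, in bulb mCh astrocytes, addressed deletion of this organic cation transporter. Cd44 and Cp rose, 2 of 8 members tested, where 2.53% of 13465 genes were called, 184 higher and 157 lower. That count of 341 rested on single libraries: it was 81 without cKO replicate 1 or 2, 1277 without cKO replicate 3, and 149, 105 and 212 without flox control replicate 1, 2 and 3 in turn. Cd44, the hyaluronan receptor, had 36.7, 82.0 and 41.6 RPM in Slc22a3-cKO libraries, against 8.36, 15.3 and 7.86 RPM in flox control libraries. Its lowest cKO library lay above its highest control, and it rose by 2.498 ± 0.525 (SE, interval 1.35 to 3.64, limma adjusted p = 0.0329). Cp, the ferroxidase, had 178, 233 and 234 RPM in Slc22a3-cKO, against 70.8, 86.5 and 124 RPM in flox control libraries, again without overlap, and rose by 1.42 ± 0.320 (SE, interval 0.72 to 2.11, limma adjusted p = 0.0421). These were the 2 members without overlap, against 22.7% of all genes, and the median of the 8 members was -0.174 (all genes -0.102).

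Both calls stood near the threshold, and the test's scaling set differences here 0.19 higher on the log2 scale than RPM would. Cd44 was lost without cKO replicate 1 (0.0819) or 2 (0.11) and without flox control replicate 1 (0.101), 2 (0.0526) or 3 (0.0765), with no trend (0.0927) and with the replicate block (0.0629), and its adjusted p over 14 alternatives ran from 7.87e-05 to 0.11. Cp was lost without cKO replicate 1 (0.108) or 2 (0.109) and without flox control replicate 1 (0.193) or 2 (0.161), with no low-value filter (0.0504), with no trend (0.174), by edgeR (0.0576) and with the replicate block (0.101), and its adjusted p ran from 0.00378 to 0.193. All of these are adjusted p values, by limma unless named.

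The filament genes did not pass. Gfap had 31.6, 12.8 and 25.2 RPM in Slc22a3-cKO, against 44.5, 43.3 and 17.5 RPM in flox control libraries, overlapping groups with a difference of -0.38 ± 0.523 (SE, limma adjusted p = 0.758). Vim had 203, 112 and 306 RPM in Slc22a3-cKO, against 102, 111 and 148 RPM in flox control libraries, a difference of 0.87 ± 0.359 (SE, limma adjusted p = 0.216). Nes had 0, 2.77 and 9.34 RPM in Slc22a3-cKO, against 6.50, 14.3 and 13.1 RPM in flox control libraries, with a difference of -2.78 ± 1.41 (SE, limma adjusted p = 0.325). Serpina3n had 80.4, 57.6 and 129 RPM in Slc22a3-cKO, against 80.5, 128 and 87.8 RPM in flox control libraries, a difference of -0.01 ± 0.358 (SE). Osmr (-0.34 ± 0.406, SE) and S1pr3 (-1.04 ± 0.969, SE) did not pass either.

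Here too other measures moved with the groups. The 14 astrocyte markers summed to 2100 to 6632 RPM in Slc22a3-cKO and 7138 to 14460 RPM in flox control libraries, with 13 of 14 lower and 3 called. The neuronal markers summed to 397 to 1192 RPM in Slc22a3-cKO and 1433 to 4252 RPM in flox control libraries, with 3 of 11 called lower. The microglial markers summed to 5687 to 11260 RPM in Slc22a3-cKO and 4826 to 11270 RPM in flox control libraries, and those of border macrophages to 448 to 607 RPM in Slc22a3-cKO and 559 to 1394 RPM in flox control libraries, so both overlapped. Malat1, at 1.65% to 4.25% of reads in Slc22a3-cKO and 2.58% to 5.73% in flox control libraries, overlapped as well. Egr1 had 1851 to 2134 RPM in Slc22a3-cKO and 3038 to 3305 RPM in flox control libraries, and oligodendrocyte precursor markers summed to 5.08 to 9.34 RPM in Slc22a3-cKO and 24.2 to 108 RPM in flox control libraries, both without overlap. The part of these in the Cd44 and Cp differences was not tested.

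Among related lists, that of A1 genes held most calls in Slc22a3-cKO. Of 10 tested, 5 were called higher and 0 lower, with a median of 2.25 (all genes -0.102, with 2.53% called). These libraries held microglial as well as astrocyte markers, as given above, and which cells held the called genes was not tested. Gbp2, an interferon-induced GTPase, rose by 5.31 (limma, adjusted p = 0.000584), with a normalised level of 5418 ± 3302 in Slc22a3-cKO and 117 ± 48.4 in flox control libraries (SD, n = 3 each). Iigp1, another interferon-induced GTPase, rose by 4.37 (limma, adjusted p = 0.000175), the proteoglycan gene Srgn by 2.86 (0.0121) and H2-D1 by 2.55 (0.0135). In the list of other pan-reactive genes, Hsbp1 among them, 2 of 4 were tested. Cxcl10, an interferon-induced chemokine, rose by 3.49 (limma, adjusted p = 0.0102), at 3430 ± 2255 in Slc22a3-cKO and 244 ± 54.0 in flox control libraries (SD, n = 3 each). Of the A2 list 6 of 12 were tested, and Ptgs2, the inducible prostaglandin synthase, rose by 4.25 (limma, adjusted p = 0.000605).

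In the gp130 and STAT3 list 11 of 14 were tested and 1 called. Osm, the ligand of the receptor that Osmr encodes, rose by 2.67 ± 0.458 (SE, limma adjusted p = 0.0129), with a normalised level of 586 ± 175 in Slc22a3-cKO and 88.0 ± 3.12 in flox control libraries (SD, n = 3 each). Of 9 other filament and cytolinker genes tested, Nefm, a neurofilament gene that is also a neuronal marker here, fell by 3.34 (limma, adjusted p = 0.0299, list median -0.714). Of 12 ligands, receptors and partners tested, S1pr1, the sphingosine-1-phosphate receptor abundant in astrocytes, fell by 2.95 (limma, adjusted p = 0.0302, list median -0.209).

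**Figure D4:**
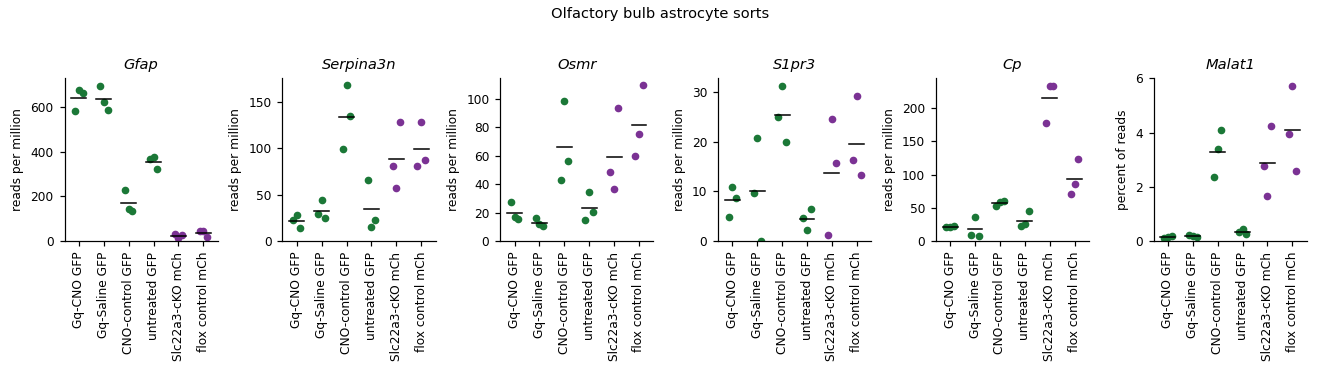
Levels in RPM of Gfap, Serpina3n, Osmr, S1pr3 and Cp, and the percent of reads taken by Malat1, in every library of 6 bulb groups labelled as astrocytes. CNO-control libraries sit below untreated ones in Gfap and above them in Serpina3n, Osmr, S1pr3, Cp and Malat1.

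Between sorts, limma called 4 of 9 other filament and cytolinker genes tested lower in the GFP sort of bulb, 7 of 9 in cortex and 5 of 9 in hippocampus, and 0 higher in each. The list's median difference was -2.03 in bulb (all genes 0.0181), -2.52 in cortex (0.0471) and -2.12 in hippocampus (-0.0438), and of all genes 1356 of 13886 were called lower in bulb, 2318 in cortex and 2204 in hippocampus. Nefl, a neurofilament gene that is also on the neuronal list, differed by -3.96 in bulb, -3.99 in cortex and -3.60 in hippocampus, and the cytolinker gene Dst by -2.03, -2.19 and -2.06 in the same order of regions. Of receptors that share gp130, Cntfr was higher in the GFP sort of cortex by 3.91 (limma, adjusted p = 3.23e-09) and of hippocampus by 2.83 (3.4e-06), and Il6ra, a receptor prominent in microglia, was lower in all 3 regions, with differences of -6.44 in bulb, -7.10 in cortex and -4.55 in hippocampus (limma, adjusted p = 8.7e-06, 5.5e-07 and 0.000657 in that order). S1pr1 was higher in the GFP sort of bulb by 1.18, of cortex by 4.12 and of hippocampus by 3.07. Between regions of the GFP sort, Sphk1, the kinase that makes sphingosine-1-phosphate, was higher in bulb than in cortex by 6.15 (limma, adjusted p = 0.000655), with normalised levels of 134 ± 32.1 in bulb and 1.73 ± 2.68 in cortex (SD, n = 6 each). S1pr1 was lower in bulb than in cortex, with a difference of -1.16 (limma, adjusted p = 0.000209). In Gq-CNO against Gq-Saline limma called 0 genes of every related list in all 6 comparisons.

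As a description of likeness, the 3 genes most like each member with a median of at least 10 RPM were found by Pearson r of log2(RPM + 1) over libraries, which share depth and batch, so no p is given. Over the 24 GFP libraries, among 7523 genes, Gfap was most like Bckdha (r = 0.835), Fau (0.815) and Sparc (0.811), and Vim most like Scrn1 (0.914), Ahcyl2 (0.90) and Mgat3 (0.884). Serpina3n was most like Kcna1 (0.901), Osmr most like Smarcad1 (0.834) and Cp most like Edil3 (0.904). Over the 24 mCh libraries, among 8577 genes, Gfap was most like Tmem127 (0.83), Vim like Pkd1 (0.865), Nes like Adcy2 (0.801), Serpina3n like Zmym6 (0.868), Osmr like Klf4 (0.876) and Cp like Rsrc2 (0.827). Among the members, over the 16 group means, Serpina3n and S1pr3 had the highest r (0.808), then Vim and Osmr (0.78), while Gfap and Cp (-0.658) and Nes and Cd44 (-0.705) ran opposite.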

How the data were processed

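The authors deposited 6 gene tables whose values are a normalised signal: reads divided by a size factor per library. Per the submitters' processing notes, FastQC 0.11.7, MultiQC 1.11, STAR 2.5.0a with mm10 and DESeq2 1.30.1 were used, and the counter, its annotation and its use of strand are not given in the sources used here. Per the labels' protocols, 10 ng of total RNA entered a Trio RNA-Seq library, sequenced as paired ends. Dividing each column by its smallest positive value gave whole reads for 100% of values within 0.05, from which reads per 1000000 (RPM) were computed. The ribosomal precursor Rn45s took 8.00% to 23.1% of reads and was kept. No pair of libraries within a group was identical.

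Tests used limma 3.58.1 with a trend (R 4.3.3) on log2(value + 1), so a log2 difference understates the change of low genes. Genes entered a comparison when 3 or more of its libraries reached a value of 10, p-values were adjusted by Benjamini-Hochberg over all genes tested, and 0.05 was the threshold. Treatment and mCh region comparisons used the deposited values, and GFP region and sort comparisons used the recovered reads under joint median-of-ratios factors. Pearson values used numpy 2.4.6. Alternatives were pseudocounts of 0.5 and 10, no filter, TMM scaling, no trend, edgeR 4.0.16 and DESeq2 1.42.0 on the recovered reads, leaving out each library, a replicate block and each treatment alone. Leaving out both cortical GFP libraries numbered 4 or both cortical mCh libraries under 1 M reads, a block within treatment, and leaving out the library highest in S1pr3 from its bounds, were chosen after seeing the data. Scripts were tested on simulated counts. Annotation is GENCODE on mm10 and promoters are RefSeq.

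The columns of 4 cortical and hippocampal GFP libraries numbered 4 were matched to their group only. The members and lists were chosen with earlier results of these data known. Every member is named in each comparison or counted, and of each related list up to 4 genes with the smallest p were eligible to be named.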

Additional observations from a re-analysis of the deposited data

How the results depend on the processing

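Of 3700 alternative values of member differences, 3625 stayed on their side of the threshold, 52 lost a call, 23 gained one and 0 called values changed sign, while 183 uncalled values had the other sign. Counts of members called moved by more than 1.5 times in 28 settings, and the cause was not tested. In CNO-control against untreated 1 member was called with no trend and 1 to 4 when each library was left out. In Slc22a3-cKO against flox control 1 was called with no low-value filter, 0 with no trend, 1 by edgeR and 0 to 2 when each library was left out. In bulb against cortex, 1 was called in GFP Gq-Saline libraries alone and 1 in mCh Gq-CNO libraries alone. In bulb against hippocampus, 1 was called in the GFP sort with a pseudocount of 10 or DESeq2, and 1 in the mCh sort with no low-value filter, edgeR or DESeq2. In cortex against hippocampus, DESeq2 called 2 in the GFP sort, Gq-Saline libraries alone gave 0 in the mCh sort, and leaving out each library gave 1 to 2 in both. In GFP against mCh, Gq-CNO libraries alone gave 2 in cortex, and in hippocampus a pseudocount of 10 gave 5, Gq-Saline libraries alone 1 and leaving out each library 1 to 3. The count over all genes moved by more than 1.5 times in 82 settings. It ran from 395 (no trend) to 1974 (DESeq2) in CNO-control (1332 as reported), and DESeq2 called 1152 in Slc22a3-cKO (341), where a pseudocount of 10 gave 524 and no trend 165. Between regions it ran, from Gq-Saline libraries alone to DESeq2, over 71 to 885 in GFP bulb against cortex (650), 84 to 767 in GFP bulb against hippocampus (474), 2 to 215 in GFP cortex against hippocampus (19), and in the mCh sort over 168 to 1290 (1060), 76 to 776 (483) and 3 to 182 (48) in the same order. Without bulb Gq-CNO replicate 3 the mCh bulb against cortex count was 669. Between sorts the same 2 settings gave 794 to 2612 in bulb (2087), 2436 to 4730 in cortex (4424) and 1899 to 4429 in hippocampus (3765). Leaving Rn45s out of the total moved 20 of 160 group levels by more than 1 SD. Depth of 0.228 to 0.695 M reads in 3 cortical libraries limits Cd44, S1pr3, Nes and Timp1 there.

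Replicate numbers pair libraries by name only: of 26 group pairs, 0 had every same-number correlation over 0.1 (range -0.157 to 0.109). With the replicate block, 0 members passed in Slc22a3-cKO against flox control (Cd44 adjusted p = 0.0629, Cp 0.101, both limma), 105 genes passed there in place of 341, and Nes in hippocampal GFP against mCh did not pass (0.117, or 0.122 within treatment).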
